A study of Homo sapiens with 12 samples.

Results

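The 7 human genes AKR1A1, AKR1B1, AKR1B10, AKR1C1, AKR1C2, AKR1C3 and AKR7A2, all of the aldo-keto reductase superfamily, were followed in 2 pancreatic cancer cell lines whose MAPK pathway had been blocked at MEK. They were picked by symbol, each Ensembl identifier of the count table being matched to its current name, and all 7 were found among its 58735 genes. The groups were KP4 cells given trametinib, KP4 cells given DMSO, MiaPaca2 cells given trametinib and MiaPaca2 cells given DMSO, with 3 sequencing libraries in each, 12 in all. KP4 and MiaPaca2 are established lines, labelled as pancreatic ductal adenocarcinoma cells. Trametinib, which blocks the kinase MEK through an allosteric pocket, was given at 100 nM for 48 h, and DMSO is its solvent. All cells were kept in DMEM with serum, antibiotics and HEPES, and messenger RNA libraries were made from total RNA of whole cultures. Each line stands for a single tumour. The labels do not say whether the libraries of a group came from separate cultures, and the p-values then describe only the spread between these libraries, which may be technical.

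Aldo-keto reductases are soluble enzymes that use NADPH to reduce aldehydes and ketones to alcohols. Their substrates include sugars, steroids, prostaglandins, retinal and the reactive aldehydes left by lipid peroxidation, and several members also reduce carbonyl groups of anticancer drugs. Several of them, AKR1B10 and the AKR1C genes above all, are known targets of NRF2, the transcription factor of the oxidative stress response, which KEAP1 and CUL3 mark for degradation.

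The AKR1C genes lie side by side on chromosome 10 and encode hydroxysteroid dehydrogenases. AKR1C1 inactivates progesterone, AKR1C2 reduces dihydrotestosterone, and AKR1C3 makes testosterone from androstenedione and reduces prostaglandins. In GRCh38 with GENCODE 29, AKR1C1 (ENSG00000187134) spans positions 4963253 to 4983283 on the plus strand, AKR1C2 (ENSG00000151632) 4987400 to 5018031 on the minus strand, and AKR1C3 (ENSG00000196139) 5035354 to 5107686 on the plus strand. Their coding sequences have 972 bases each. AKR1C1 and AKR1C2 were 98.05% identical there, AKR1C1 and AKR1C3 91.46%, and AKR1C2 and AKR1C3 91.05%. The promoters are given because the AKR1C genes were all higher with trametinib in MiaPaca2. The 250 bases upstream of the RefSeq start (GRCh38.p14, 5′ to 3′ on the gene's strand) are chr10:4963165-4963414 on the plus strand for AKR1C1, chr10:5003858-5004107 on the minus strand for AKR1C2 and chr10:5094164-5094413 on the plus strand for AKR1C3, whose table entry has 2 starts, of which this is the downstream one. These RefSeq starts are not the outer ends of the GENCODE spans above. The AKR1C2 and AKR1C3 windows lie inside those spans, and the AKR1C1 window crosses the start of its span. Capitals mark the longest run that all 3 share.
AKR1C1: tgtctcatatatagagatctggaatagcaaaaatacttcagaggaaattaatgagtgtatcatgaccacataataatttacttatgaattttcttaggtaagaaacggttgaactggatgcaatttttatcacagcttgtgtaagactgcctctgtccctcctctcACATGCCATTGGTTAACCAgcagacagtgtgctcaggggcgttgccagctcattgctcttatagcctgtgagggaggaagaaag
AKR1C2: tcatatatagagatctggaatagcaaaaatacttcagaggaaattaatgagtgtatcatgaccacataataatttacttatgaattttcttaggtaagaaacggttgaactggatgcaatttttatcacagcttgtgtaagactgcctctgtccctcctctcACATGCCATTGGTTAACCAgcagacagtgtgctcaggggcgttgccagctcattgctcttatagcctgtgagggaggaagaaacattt
AKR1C3: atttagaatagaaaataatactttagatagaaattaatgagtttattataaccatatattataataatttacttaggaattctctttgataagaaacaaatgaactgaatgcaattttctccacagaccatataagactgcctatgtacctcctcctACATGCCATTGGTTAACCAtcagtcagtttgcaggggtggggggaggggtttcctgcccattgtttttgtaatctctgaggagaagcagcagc
The AKR1C1 and AKR1C2 windows were 96.46% identical. The AKR1C3 window was 69.17% identical to that of AKR1C1 and 69.81% to that of AKR1C2. The shared run of 19 bases starts at −84 in AKR1C1, −88 in AKR1C2 and −93 in AKR1C3, counted from the start of transcription, and holds CCAAT on its other strand.

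Both strands of the 250-base windows were searched for 3 motifs, in 9 RefSeq promoters of 6 members and 35116 promoters in all. CCAAT, the box bound by NF-Y, was present in every AKR1C window and in 1 of 2 AKR1B1 windows, and in 32.01% of all promoters. TGACNNNGC, the core of the antioxidant response element bound by NRF2, was found 3 times in each AKR7A2 window and in no window of another member, and in 10.91% of all promoters. TGANTCA, the AP-1 site with any base allowed in the middle, was in none of the 9 windows and in 6.57% of all promoters. The AKR7A2 windows, chr1:19312147-19312396 and chr1:19312145-19312394, overlap almost fully and hold the same 3 matches. A match describes letters, not a bound site. Sequence beyond the 250 bases was not searched, so an absence holds for the window only.

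Total counts ran from 20293688 to 28018129 per library. Levels are counts per unit of library size (CPM), scaled by edgeR's TMM factors, and a gene is called changed where edgeR's quasi-likelihood test gave a Benjamini-Hochberg adjusted p under 0.05 over the 16133 genes tested. All 4 ERK output genes checked, DUSP6, SPRY4, ETV4 and ETV5, fell in both lines. One library stood apart: the chi-square per degree of freedom of MiaPaca2 DMSO replicate 2 against replicates 1 and 3 was 14.5 and 13.3, while it was 7.70 between replicates 1 and 3 and 2.02 to 2.89 within the other groups. Results of the members called in MiaPaca2 are therefore also given without it, while most other genes are given with all 12 libraries only. Mitochondrial transcripts took 5.48% to 5.75% of counts in KP4 trametinib and 4.16% to 4.38% in KP4 DMSO, and 4.02% to 4.25% in MiaPaca2 trametinib and 2.25% to 3.32% in MiaPaca2 DMSO. Of 6 ductal epithelial markers, KRT8, KRT18 and SOX9 averaged 27.2 CPM or more in every group, while EPCAM stayed at or below 0.734 CPM. With trametinib, 2 of the 6 were higher and 2 lower in KP4, SOX9 by a log2 fold change of −2.21 ± 0.05, and 1, EPCAM, was higher and 4 were lower in MiaPaca2. Without MiaPaca2 DMSO replicate 2, the 4 lower in MiaPaca2 were KRT8 at −1.35, KRT18 at −1.85, KRT19 at −0.94 and SOX9 at −1.51. Of 4 mesenchymal markers, 1 was higher and 2 lower in KP4, and 2 were higher and 2 lower in MiaPaca2. There CDH2 rose by 1.11 ± 0.17 and FN1 by 1.10 ± 0.11, while VIM and ZEB1 fell. Without MiaPaca2 DMSO replicate 2, CDH2 had 1.43, FN1 1.32, VIM −0.31 and ZEB1 −0.20. All 4 acinar markers were at 0. Of the immune markers, CD3E was at 0, CD68 did not exceed 0.352 CPM in any group mean, and PTPRC averaged 0.561 CPM in KP4 trametinib and 1.35 in KP4 DMSO, called lower with trametinib, and 4.40 CPM in MiaPaca2 trametinib and 3.30 in MiaPaca2 DMSO. Of 4 fibroblast genes, COL1A1 and COL1A2 were higher with trametinib in MiaPaca2, COL1A2 at 209.6 CPM with trametinib and 101 CPM with DMSO, while DCN and PDGFRA did not exceed 0.123 CPM in any group mean. COL1A1 was higher in KP4 too, by 0.49 in the fit without MiaPaca2 DMSO replicate 2 (edgeR adjusted p = 2.48e-04). The part of these shifts in the results was not tested.

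With trametinib, MiaPaca2 cells had more AKR1C1, AKR1C2, AKR1C3, AKR1B1 and AKR1A1 RNA, and KP4 cells had more AKR1A1 RNA. In KP4, AKR1A1 was the single member called, where 48.1% of all genes tested were called, 23.9% of them higher and 24.1% lower as shares of all genes. In MiaPaca2, 5 members were called higher and none lower, where 64% of all genes were called, 34.4% higher and 29.7% lower. The shares of the lines depend on the single model of all 12 libraries. With only the libraries compared, 9001 of 14954 genes were called in KP4 and 9446 of 15278 in MiaPaca2. In the difference of responses, KP4 minus MiaPaca2, AKR1B1 and AKR1C3 were called lower, where 35.7% of all genes were called, 16% higher and 19.7% lower. Between the lines in DMSO, AKR1A1 and AKR1B1 were called higher and AKR7A2, AKR1C1 and AKR1C2 lower in KP4, where 63.2% of genes were called, 32% higher and 31.2% lower. With trametinib, AKR1A1 was called higher and the other 5 tested members lower in KP4, where 56.3% of genes were called, 26.5% higher and 29.8% lower. A call is thus common among genes of any kind in each comparison. AKR1B10 had too few counts to be tested. AKR1C2 and AKR1C3 passed the filter on low counts only through the MiaPaca2 trametinib libraries, and AKR1C1 only through MiaPaca2, so these counts support nothing about the family as a whole.

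**Figure D1:**
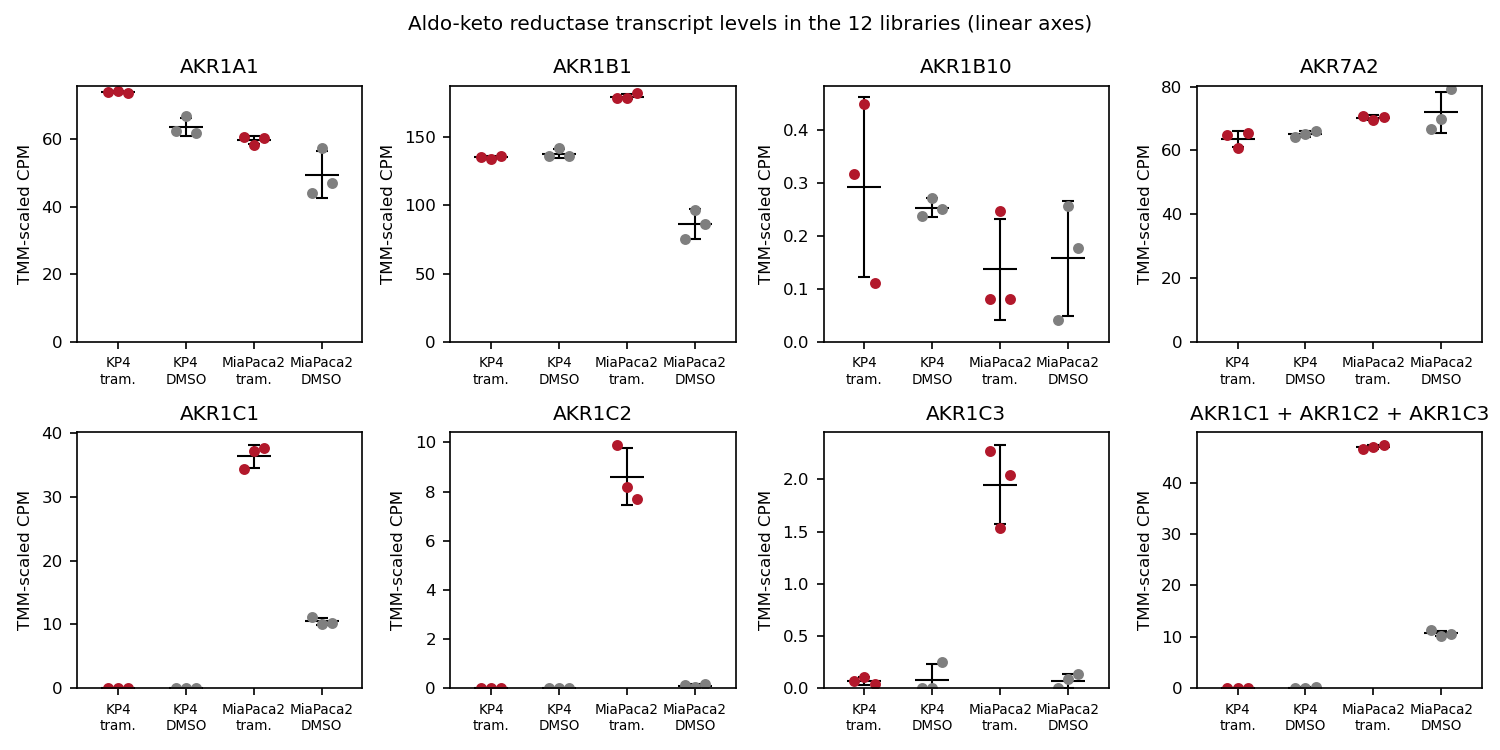
TMM-scaled CPM of the 7 genes and of the AKR1C sum in each of the 12 libraries (points), with the mean and SD of 3 libraries (bars), on linear axes that differ between panels. The AKR1C sum lay between 46.5 and 47.4 CPM in MiaPaca2 trametinib, between 10.3 and 11.3 CPM in MiaPaca2 DMSO, and did not exceed 0.286 CPM in KP4.

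AKR1C1 had 845, 753 and 922 counts in MiaPaca2 trametinib and 270, 238 and 231 counts in MiaPaca2 DMSO, for replicates 1, 2 and 3. AKR1C2 had 244, 166 and 189 counts in MiaPaca2 trametinib and 3, 1 and 4 counts in MiaPaca2 DMSO. AKR1C3 had 56, 31 and 50 counts in MiaPaca2 trametinib and 0, 2 and 3 counts in MiaPaca2 DMSO. For each gene the lowest trametinib library lay above the highest DMSO library, and AKR1C2 and AKR1C3 had only a handful of reads in DMSO. Here and below, the separation of libraries is a description, as its share over all genes was not counted. AKR1C1 averaged 36.4 ± 1.79 CPM with trametinib and 10.5 ± 0.550 CPM with DMSO, AKR1C2 8.61 ± 1.16 and 0.115 ± 0.0678 CPM, and AKR1C3 1.95 ± 0.380 and 0.0727 ± 0.0673 CPM (mean ± SD, n = 3 each).

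AKR1C1 rose in MiaPaca2 by 1.79 ± 0.08 on the log2 scale (SE; edgeR adjusted p = 3.75e-16). For AKR1C2 the log2 fold change was 6.18 ± 0.33 (edgeR adjusted p = 9.20e-14), and the ratio of summed counts, 599 with trametinib against 8 with DMSO and scaled for depth, was 75.8 (exact 95% interval 38.2 to 176). For AKR1C3 it was 4.70 ± 0.56 (edgeR adjusted p = 1.39e-08), with 137 counts against 5 and a ratio of 27.8 (exact 95% interval 11.6 to 86.8). These intervals cover counting error only. AKR1C2 and AKR1C3 passed the filter on low counts only through MiaPaca2 trametinib, where they are high. Their adjusted p-values are therefore a description. With no filter their log2 fold changes were 6.17 and 4.69. Without MiaPaca2 DMSO replicate 2 the log2 fold changes were 1.76 for AKR1C1, 5.80 for AKR1C2 and 4.84 for AKR1C3, and each was called. The direction is the same for all 3, while the size for AKR1C2 and AKR1C3 rests on 8 and 5 counts in DMSO. In RNA of whole cultures, more RNA per cell and more cells with the transcript cannot be told apart.

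Because the AKR1C genes are so alike, the split of reads between them depends on how reads were assigned, and the counting rule is unknown here. Of the 50-base windows of the coding sequence, 54.5% in AKR1C1, 57.2% in AKR1C2 and 23.0% in AKR1C3 also occur in a transcript of another gene. For 100-base windows these shares were 21.0%, 26.7% and 9.74%. The summed AKR1C count, which is free of the split between these 3 genes, was therefore tested too. It averaged 46.9 ± 0.428 CPM in MiaPaca2 trametinib and 10.7 ± 0.512 CPM in MiaPaca2 DMSO (mean ± SD, n = 3 each). The log2 fold change was 2.13 ± 0.09 (edgeR adjusted p = 2.81e-18), or 2.10 without MiaPaca2 DMSO replicate 2, and the count ratio was 4.39 (exact 95% interval 4.05 to 4.75). The sum of AKR1C1 and AKR1C2 alone rose by 2.08 ± 0.08.

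The make-up of the AKR1C reads is given per library. AKR1C2 took 21.3%, 17.5% and 16.3% of AKR1C counts in the MiaPaca2 trametinib libraries and 1.10%, 0.415% and 1.68% in the MiaPaca2 DMSO libraries. The lowest lower limit with trametinib, 14.2%, lay above the highest upper limit in DMSO, 4.25% (exact Clopper-Pearson 95% intervals, which cover counting error only). AKR1C3 took 4.15% ± 0.825 with trametinib and 0.697% ± 0.641 with DMSO, and AKR1C1 77.5% ± 3.20 with trametinib and 98.2% ± 1.02 with DMSO (mean ± SD, n = 3 each). The groups did not overlap for any of the 3 shares, and a two-sided exact permutation test gave p = 0.1, the smallest that 3 against 3 libraries allow, so this design could not reach the threshold. AKR1C1 took most AKR1C reads in MiaPaca2 under both conditions, and AKR1C2 came next with trametinib.

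**Figure D2:**
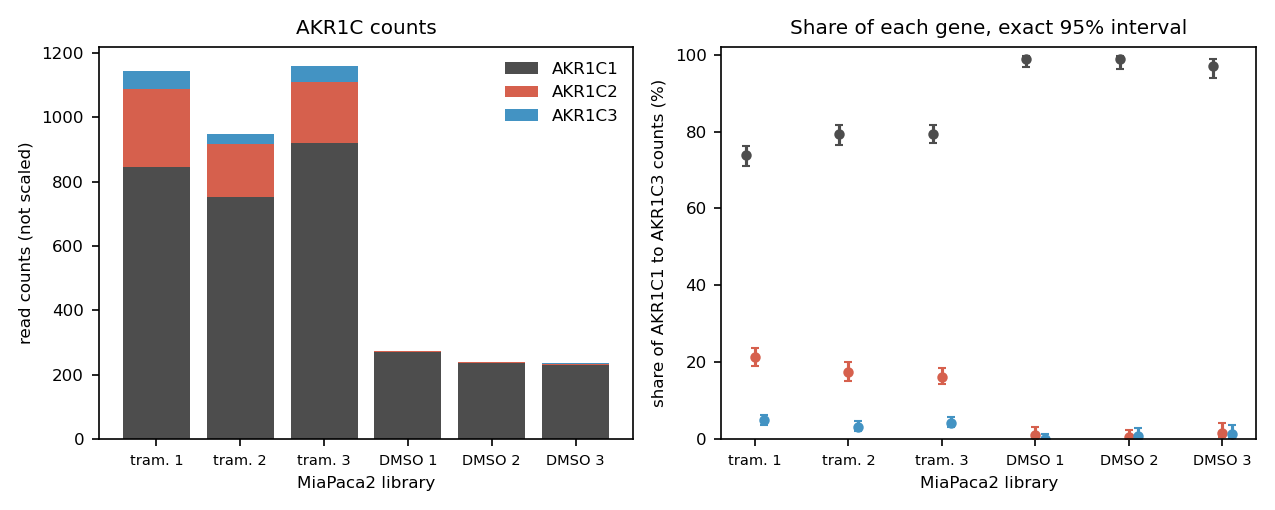
Read counts of AKR1C1, AKR1C2 and AKR1C3 in the 6 MiaPaca2 libraries (left, stacked, not scaled for depth) and the share of each gene with its exact 95% interval (right). The AKR1C2 share is 16.3% to 21.3% in the trametinib libraries and 0.415% to 1.68% in the DMSO libraries.

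KP4 had almost no AKR1C reads with or without trametinib. AKR1C1 had 0 counts in all 3 KP4 trametinib libraries and 0, 1 and 1 counts in KP4 DMSO. AKR1C2 had 0 counts in all 6 KP4 libraries, which allows a level of up to 0.0365 CPM in KP4 trametinib and 0.0380 CPM in KP4 DMSO, at 3 counts over the group. AKR1C3 had 2, 3 and 1 counts in KP4 trametinib and 0, 0 and 7 counts in KP4 DMSO, so all its DMSO reads came from replicate 3. A change of AKR1C1 or AKR1C2 with trametinib was not detectable in KP4 at this depth. For AKR1C3 the ratio of summed counts was 0.823 (exact 95% interval 0.229 to 2.86). For the AKR1C sum it was 0.640 (exact 95% interval 0.188 to 2.01), and the sum did not pass the test (edgeR adjusted p = 0.642).

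The lines differed widely in AKR1C level. With trametinib, AKR1C1 had 0 counts in KP4 and 2520 in MiaPaca2, at least 995-fold lower in KP4 against the floor of 3 counts over the group, and AKR1C2 had 0 and 599 counts, at least 236.5-fold lower in KP4. In DMSO, AKR1C1 had 2 counts in KP4 and 739 in MiaPaca2, a ratio of MiaPaca2 over KP4 of 414.9 (exact 95% interval 114.5 to 3432). The log2 fold change of the AKR1C sum, KP4 over MiaPaca2, was −9.23 ± 0.21 with trametinib and −6.49 ± 0.29 in DMSO (edgeR adjusted p = 4.38e-24 and 2.12e-17). AKR1C3 had 6 counts in KP4 and 137 in MiaPaca2 with trametinib, a log2 fold change of −4.66 ± 0.53 (edgeR adjusted p = 8.45e-09). That p-value is a description, as AKR1C3 passed the filter only through MiaPaca2 trametinib. In DMSO AKR1C3 had 7 counts in KP4 and 5 in MiaPaca2 (edgeR adjusted p = 0.840). AKR1C2 in DMSO, with 0 counts in KP4 and 8 in MiaPaca2, was called lower in KP4 (edgeR adjusted p = 0.0366), but leaving out any single KP4 DMSO library, or MiaPaca2 DMSO replicate 1 or 3, gave adjusted p-values of 0.0683 to 0.102.

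The difference of responses, the trametinib effect in KP4 minus that in MiaPaca2, rested on very few KP4 reads for these genes. It was −2.74 ± 1.04 for the AKR1C sum (edgeR adjusted p = 0.0398) and −4.96 ± 1.51 for AKR1C3 (edgeR adjusted p = 0.00994). Without KP4 DMSO replicate 3, the library with 7 AKR1C3 counts, these were −0.47 (edgeR adjusted p = 0.955) and −0.74 (edgeR adjusted p = 0.812). The call of the AKR1C sum was also lost without KP4 trametinib replicate 1 (edgeR adjusted p = 0.0794), KP4 trametinib replicate 3 (0.0937) or MiaPaca2 trametinib replicate 3 (0.0504). With replicate numbers as a block it missed the threshold (edgeR adjusted p = 0.0640). AKR1C1 did not pass the test (edgeR adjusted p = 0.137). For AKR1C2, with no read in KP4, edgeR gave no usable standard error, while DESeq2 and limma-voom called the difference (adjusted p = 0.00184 and 5.85e-05) against a KP4 response in which every library was at 0.

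AKR1B1, aldose reductase, makes sorbitol from glucose in the polyol pathway and also reduces lipid aldehydes. It lies on the minus strand of chromosome 7 (ENSG00000085662, positions 134442350 to 134459284). The level was 179, 178 and 182 CPM in MiaPaca2 trametinib and 75.0, 96.9 and 86.6 CPM in MiaPaca2 DMSO. Every trametinib library of MiaPaca2 lay above every DMSO library, with a log2 fold change of 1.06 ± 0.06 (edgeR adjusted p = 7.30e-14), or 1.15 without MiaPaca2 DMSO replicate 2. In KP4 it was 135, 134 and 136 CPM with trametinib and 136, 142 and 136 CPM with DMSO. These libraries overlapped, and the log2 fold change was −0.03 ± 0.06 (edgeR adjusted p = 0.723).

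The AKR1B1 responses differed between the lines by −1.09 ± 0.08 on the log2 scale (KP4 minus MiaPaca2; edgeR adjusted p = 1.80e-10), a difference called under every alternative tried. With trametinib the log2 fold change of KP4 over MiaPaca2 was −0.41 ± 0.06 (edgeR adjusted p = 1.06e-06), and in DMSO it was 0.68 ± 0.06 (edgeR adjusted p = 4.22e-10). KP4 was thus the lower line with trametinib and the higher line in DMSO.

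AKR1B10, which reduces retinal and is known as an NRF2 target in lung and liver cancers, lies on the plus strand of chromosome 7 (ENSG00000198074, positions 134527592 to 134541408). It had 9, 12 and 3 counts in KP4 trametinib and 6, 7 and 7 counts in KP4 DMSO. In MiaPaca2 it had 2, 5 and 2 counts with trametinib and 1, 6 and 4 counts with DMSO. The libraries overlapped in both lines. The ratio of summed counts, trametinib over DMSO, was 1.15 (exact 95% interval 0.610 to 2.20) in KP4 and 0.829 (exact 95% interval 0.304 to 2.20) in MiaPaca2, so a change was not detectable at this depth. Of its 50-base coding windows, 28.4% also occur in another gene, mainly AKR1B15, which had 0 counts in all libraries.

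AKR1A1, aldehyde reductase, reduces glucuronate and many aromatic aldehydes. It lies on the plus strand of chromosome 1 (ENSG00000117448, positions 45550543 to 45570049), and it was slightly higher with trametinib in both lines. The level was 73.8, 74.1 and 73.6 CPM in KP4 trametinib and 62.3, 66.7 and 61.7 CPM in KP4 DMSO, with no overlap and a log2 fold change of 0.22 ± 0.06 (edgeR adjusted p = 0.00701). In MiaPaca2 it was 60.6, 58.4 and 60.2 CPM with trametinib and 44.0, 57.3 and 46.9 CPM with DMSO, again with no overlap and a log2 fold change of 0.28 ± 0.07 (edgeR adjusted p = 0.00127). The highest of these DMSO values is that of replicate 2, and without it the change was 0.39 ± 0.06. The difference between the responses was −0.06 ± 0.10 (edgeR adjusted p = 0.681), and −0.18 ± 0.08 without that library (edgeR adjusted p = 0.0585). The log2 fold change of KP4 over MiaPaca2 was 0.30 ± 0.07 with trametinib and 0.36 ± 0.07 in DMSO (edgeR adjusted p = 3.20e-04 and 5.10e-05).

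AKR7A2, a reductase of succinic semialdehyde and of aflatoxin dialdehyde, lies on the minus strand of chromosome 1 (ENSG00000053371, positions 19303965 to 19312146). It had 64.9, 60.8 and 65.3 CPM in KP4 trametinib and 64.2, 65.2 and 66.0 CPM in KP4 DMSO. In MiaPaca2 it had 70.9, 69.4 and 70.4 CPM with trametinib and 66.8, 69.7 and 79.2 CPM with DMSO. The libraries overlapped in both lines, and neither the log2 fold change of −0.03 ± 0.06 in KP4 nor that of −0.03 ± 0.06 in MiaPaca2 passed the test (edgeR adjusted p = 0.673 and 0.638). The log2 fold change of KP4 over MiaPaca2 was −0.14 ± 0.06 with trametinib (edgeR adjusted p = 0.0381) and −0.14 ± 0.06 in DMSO (edgeR adjusted p = 0.0337). Scaling by library size alone ended both calls (edgeR adjusted p = 0.0752 with trametinib and 0.0941 in DMSO), as did using no filter (0.0797 and 0.0552). RLE scaling and DESeq2 ended the trametinib call alone (adjusted p = 0.0679 and 0.0836). Leaving out single libraries ended the trametinib call in 9 of 12 cases and the DMSO call for each KP4 DMSO library and MiaPaca2 DMSO replicate 3, with adjusted p-values up to 0.288.

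**Figure D3:**
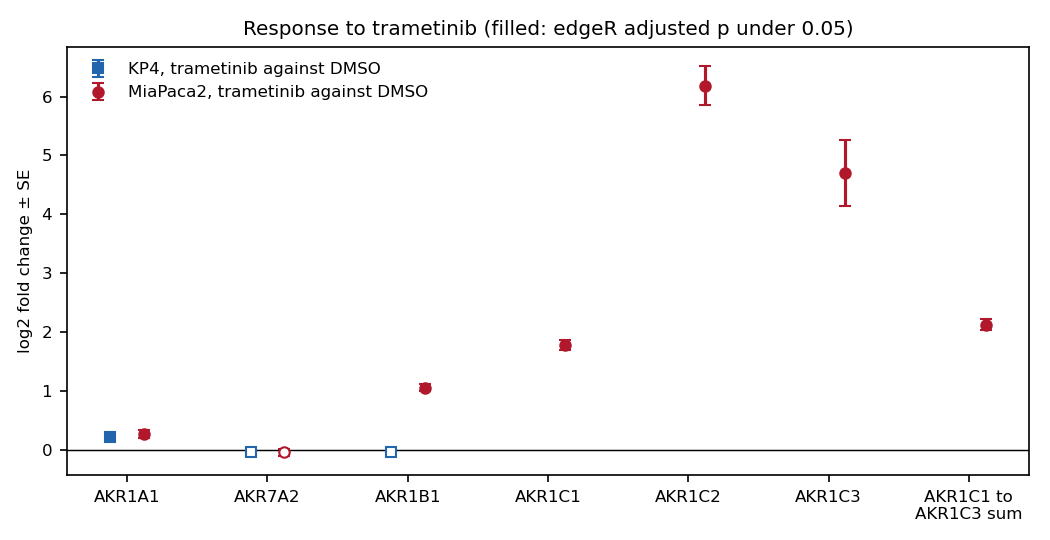
Log2 fold change ± SE of trametinib against DMSO for the tested genes and the AKR1C sum, in KP4 (squares) and MiaPaca2 (circles), filled where the edgeR adjusted p is under 0.05. KP4 values of the AKR1C genes are left out because KP4 had 9 or fewer AKR1C reads over each group of 3 libraries. AKR1B1 stands at −0.03 in KP4 and 1.06 in MiaPaca2, while AKR1A1 is at 0.22 and 0.28.

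Levels of different genes were compared as CPM per kilobase of exon, with all annotated exons of a gene counted. That length was 3660 bases for AKR1B1, 1781 for AKR7A2 and 3121 for AKR1A1, while their principal transcripts have 1409, 1362 and 1166 bases. The order of these genes, and whether their ranges overlap, therefore depends on the length chosen. In MiaPaca2 trametinib, AKR1B1 stood highest at 49.1 ± 0.568, above AKR7A2 at 39.4 ± 0.418 and AKR1A1 at 19.1 ± 0.384 CPM per kilobase. In MiaPaca2 DMSO, AKR7A2 stood highest at 40.4 ± 3.65, above AKR1B1 at 23.5 ± 2.99 and AKR1A1 at 15.8 ± 2.24 CPM per kilobase. With this exon length the order of these genes differed between the MiaPaca2 groups, and no ranges of neighbours among them overlapped. Levels by principal transcript length were not compared. In KP4 trametinib, AKR1B1 at 36.9 ± 0.298 and AKR7A2 at 35.8 ± 1.41 CPM per kilobase had ranges that overlapped, above AKR1A1 at 23.7 ± 0.0781. In KP4 DMSO the order was AKR1B1 at 37.7 ± 0.903, AKR7A2 at 36.6 ± 0.529 and AKR1A1 at 20.4 ± 0.874 CPM per kilobase. The ranges of AKR1B1 and AKR7A2 in KP4 DMSO did not overlap but nearly met, at 37.1 CPM per kilobase.

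AKR1C1 came next in MiaPaca2, at 4.15 ± 0.204 CPM per kilobase with trametinib and 1.20 ± 0.0627 with DMSO. In MiaPaca2 trametinib it was followed by AKR1C2 at 1.33 ± 0.179, AKR1C3 at 0.430 ± 0.0839 and AKR1B10 at 0.0783 ± 0.0548 CPM per kilobase, with no overlap of neighbours. In MiaPaca2 DMSO, AKR1B10 averaged 0.0906 ± 0.0622, AKR1C2 0.0177 ± 0.0105 and AKR1C3 0.0160 ± 0.0149 CPM per kilobase, with ranges that overlapped. In KP4, AKR1B10 averaged 0.167 ± 0.0974 with trametinib and 0.145 ± 0.00993 with DMSO, above AKR1C3 at 0.0161 ± 0.00829 and 0.0184 ± 0.0319 CPM per kilobase.

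The genes whose log2 CPM followed each member most closely over the 12 libraries are given as a description, since these points share 4 group means. AKR1C1 ran with TXNIP (Pearson r = 0.999), GPRC5A and EMCN. TXNIP, a binder of thioredoxin, averaged 0.510 CPM in KP4 trametinib and 0.571 in KP4 DMSO, and 159 CPM in MiaPaca2 trametinib and 52.5 in MiaPaca2 DMSO. AKR1C2 ran with ZC3H12A (r = 0.995), GNAS and TMEM9, and AKR1C3 with MFSD12 (r = 0.972), MAFK and TMBIM1. AKR1B1 ran with WDR45 (r = 0.992), PRKRIP1 and SPATA20. AKR1A1 ran with PICK1 (r = 0.982), STARD4 and VEGFB, and AKR7A2 with ZNF526 (r = 0.943), C14orf119 and EID2. Among the members, AKR1C2 and AKR1C3 had r = 0.924 and AKR1C1 and AKR1C2 r = 0.813. AKR1C1 and AKR1C3 had r = 0.663, below the 0.733 of AKR1C1 and AKR7A2.

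Of 10 other superfamily genes, 5 were abundant enough to be tested, of which 1 was higher and 1 lower in KP4 and 1 higher and 2 lower in MiaPaca2. KCNAB2, a beta subunit of potassium channels with an aldo-keto reductase fold, averaged 32.1 ± 1.66 CPM in KP4 trametinib and 22.7 ± 0.104 in KP4 DMSO, and 26.7 ± 1.35 CPM in MiaPaca2 trametinib and 20.9 ± 1.33 in MiaPaca2 DMSO. It rose by 0.50 ± 0.07 in KP4 and 0.35 ± 0.08 in MiaPaca2 on the log2 scale (edgeR adjusted p = 1.36e-06 and 2.58e-04). KCNAB3, another beta subunit, fell by 0.86 ± 0.21 in KP4 and fell by 0.78 ± 0.29 in MiaPaca2, and the MiaPaca2 call was lost without MiaPaca2 DMSO replicate 2 (edgeR adjusted p = 0.125). AKR1E2, known in mouse as a reductase of anhydrofructose, averaged 3.50 ± 0.211 CPM in MiaPaca2 trametinib and 7.08 ± 1.18 in MiaPaca2 DMSO, where it fell by 1.01 ± 0.17 (edgeR adjusted p = 1.27e-05). In KP4 AKR1E2 was at 1.09 ± 0.458 CPM with trametinib and 0.898 ± 0.175 with DMSO (edgeR adjusted p = 0.560). AKR1B15, AKR1C4 and AKR1C8 had no count, and AKR1D1 and KCNAB1 had at most 6 counts in a library.

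Of 10 regulators of NRF2, 3 were higher and 3 lower in KP4, and 5 were higher and 3 lower in MiaPaca2. NFE2L2, the gene of NRF2, averaged 166 ± 3.78 CPM in KP4 trametinib and 151 ± 3.33 in KP4 DMSO, and 167 ± 1.85 CPM in MiaPaca2 trametinib and 108 ± 7.26 in MiaPaca2 DMSO. It rose by 0.14 ± 0.04 in KP4 and 0.64 ± 0.05 in MiaPaca2 (edgeR adjusted p = 0.00899 and 4.79e-12), and these responses differed by −0.49 ± 0.06 (KP4 minus MiaPaca2; edgeR adjusted p = 1.00e-06). SQSTM1, the autophagy receptor that binds KEAP1, rose by 0.58 ± 0.13 in KP4 and 1.44 ± 0.13 in MiaPaca2 on the log2 scale. NFE2L1, a related factor, rose by 0.26 ± 0.03 in KP4 and 0.51 ± 0.03 in MiaPaca2. CUL3, the ligase scaffold, fell by 0.16 ± 0.05 in KP4 and fell by 0.47 ± 0.05 in MiaPaca2. KEAP1, which presents NRF2 to that ligase, had −0.03 ± 0.05 in KP4 (edgeR adjusted p = 0.619) and fell by 0.17 ± 0.05 in MiaPaca2.

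The partners of NRF2 at DNA moved less evenly. Of the small MAF genes, MAFF fell by 2.25 ± 0.11 in KP4 and fell by 0.60 ± 0.12 in MiaPaca2 on the log2 scale. MAFG fell by 0.30 ± 0.05 in KP4 and had 0.07 ± 0.06 in MiaPaca2 (edgeR adjusted p = 0.271). MAFK had −0.03 ± 0.05 in KP4 (edgeR adjusted p = 0.697) and rose by 0.49 ± 0.05 in MiaPaca2. BACH1, a repressor at NRF2 sites, had 0.02 ± 0.07 in KP4 (edgeR adjusted p = 0.878) and rose by 0.34 ± 0.07 in MiaPaca2. RBX1, the ring subunit of the ligase, passed the test in neither line (edgeR adjusted p = 0.189 in KP4 and 0.161 in MiaPaca2, the second of which was 0.0328 without MiaPaca2 DMSO replicate 2).

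Of 34 known NRF2 targets outside the family that were tested, 25 were higher and 2 lower in KP4 with a median log2 fold change of 0.39, and 20 were higher and 5 lower in MiaPaca2 with a median of 0.36. Of all genes tested, 23.9% were higher and 24.1% lower in KP4, and 34.4% were higher and 29.7% lower in MiaPaca2, with medians of 0 in KP4 and 0.05 in MiaPaca2. These shares are also the background of the other lists. HMOX1, heme oxygenase, averaged 218 ± 8.18 CPM in KP4 trametinib and 118 ± 0.657 in KP4 DMSO, and 112 ± 2.84 CPM in MiaPaca2 trametinib and 23.8 ± 6.71 in MiaPaca2 DMSO. It rose by 0.89 ± 0.10 in KP4 and 2.23 ± 0.12 in MiaPaca2 (edgeR adjusted p = 9.96e-06 and 7.78e-09). OSGIN1, an oxidative stress-induced growth inhibitor, rose by 0.93 ± 0.07 in KP4 and 1.68 ± 0.08 in MiaPaca2. TRIM16L rose by 0.93 ± 0.11 in KP4, and ABCC2, an export pump, by 1.53 ± 0.10 in MiaPaca2. ABCC3, a pump of the same family, fell by 1.05 ± 0.12 in KP4, and UGDH, which makes UDP-glucuronate, fell by 0.21 ± 0.06 there. GCLM, a subunit of the enzyme that starts glutathione synthesis, averaged 61.8 ± 2.59 CPM in MiaPaca2 trametinib and 134 ± 21.6 in MiaPaca2 DMSO, where it fell by 1.12 ± 0.09 (edgeR adjusted p = 3.10e-08). MGST1, a membrane glutathione transferase, fell by 0.98 ± 0.10 and the taurine transporter gene SLC6A6 fell by 0.46 ± 0.05 in MiaPaca2.

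**Figure D4:**
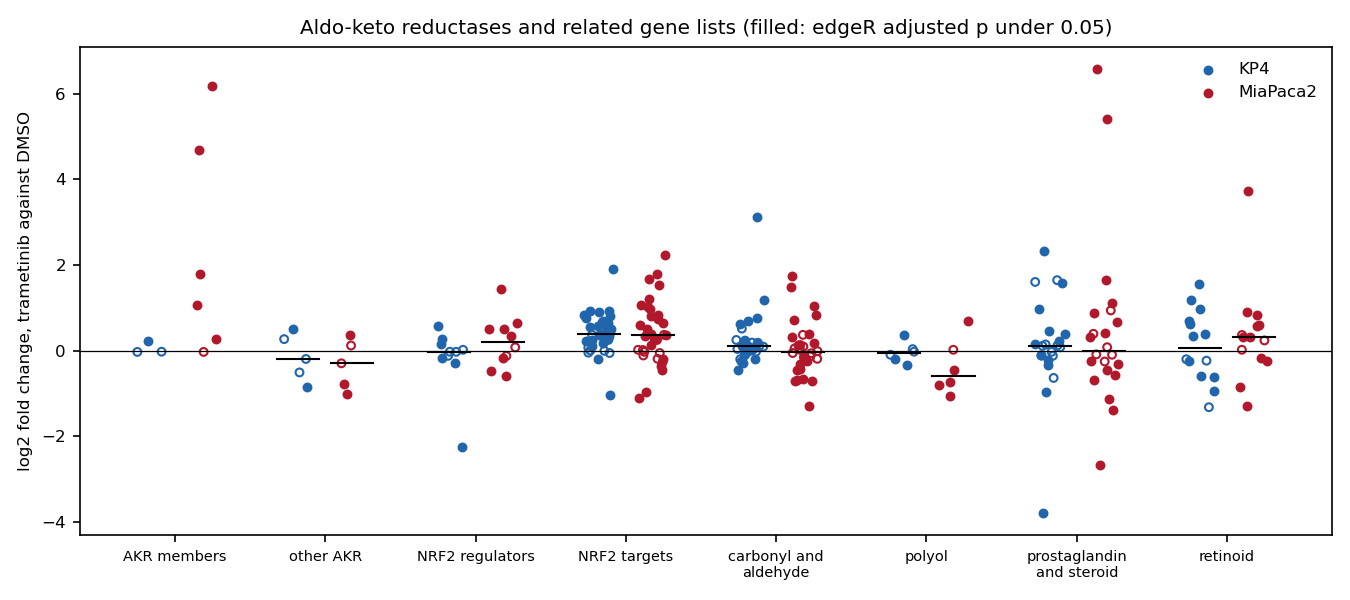
Log2 fold change of trametinib against DMSO for each tested gene of the lists, in KP4 (blue, left of each pair) and MiaPaca2 (red), filled where the edgeR adjusted p is under 0.05. Black lines are medians, which are 0.39 in KP4 and 0.36 in MiaPaca2 for NRF2 targets. KP4 values of the AKR1C genes are left out, no median is drawn for the aldo-keto reductase members, and some genes stand in more than 1 list.

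Of 30 other enzymes of carbonyl and aldehyde metabolism that were tested, 9 were higher and 5 lower in KP4 (median log2 fold change 0.11), and 9 were higher and 10 lower in MiaPaca2 (median −0.04), which in MiaPaca2 is close to the shares of all genes. ALDH3B1, which oxidises lipid aldehydes at membranes, averaged 8.68 ± 0.370 CPM in KP4 trametinib and 0.989 ± 0.156 in KP4 DMSO, and 78.6 ± 2.95 CPM in MiaPaca2 trametinib and 23.4 ± 2.38 in MiaPaca2 DMSO. It rose by 3.13 ± 0.18 in KP4 and 1.75 ± 0.07 in MiaPaca2. ALDH1A3, a retinal dehydrogenase, rose by 1.19 ± 0.07 in KP4 and fell by 1.31 ± 0.06 in MiaPaca2, and the difference of responses was 2.50 ± 0.10 (KP4 minus MiaPaca2; edgeR adjusted p = 2.17e-16). NQO1, a quinone reductase and NRF2 target, rose by 0.75 ± 0.05 in KP4. In MiaPaca2 ALDH1A1, also a retinal dehydrogenase, rose by 0.82 ± 0.07 and DHRS2 by 1.05 ± 0.26. GLO1, which detoxifies methylglyoxal, fell by 0.30 ± 0.07 in KP4 and fell by 0.72 ± 0.07 in MiaPaca2. ALDH9A1 fell by 0.45 ± 0.06 in KP4 and fell by 0.71 ± 0.06 in MiaPaca2, and ALDH1B1 fell by 0.25 ± 0.05 in KP4.

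Of 6 tested genes that act beside AKR1B1 and AKR1A1 on sugars, 1 was higher and 2 were lower in KP4 (median log2 fold change −0.06), and 1 was higher and 4 were lower in MiaPaca2 (median −0.59). SORD, which oxidises the sorbitol made by AKR1B1 to fructose, averaged 27.9 ± 2.09 CPM in MiaPaca2 trametinib and 46.2 ± 1.93 in MiaPaca2 DMSO, where it fell by 0.73 ± 0.07 (edgeR adjusted p = 3.98e-10). In KP4 SORD was at 21.0 ± 0.0278 CPM with trametinib and 20.6 ± 0.601 with DMSO (edgeR adjusted p = 0.760). KHK, the kinase of fructose, fell by 1.07 ± 0.21 in MiaPaca2. XYLB, a xylulose kinase, fell by 0.35 ± 0.09 in KP4 and fell by 0.80 ± 0.10 in MiaPaca2, while CRYL1, a dehydrogenase of gulonate, the product of AKR1A1, rose by 0.36 ± 0.10 in KP4 and 0.70 ± 0.09 in MiaPaca2.

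Of 22 prostaglandin and steroid genes tested, 7 were higher and 5 lower in KP4 (median log2 fold change 0.11), and 8 were higher and 8 lower in MiaPaca2 (median −0.01, and 0.15 without MiaPaca2 DMSO replicate 2). PTGS2, the inducible cyclooxygenase that starts prostaglandin synthesis upstream of AKR1C3 and AKR1B1, fell by 3.80 ± 0.22 in KP4 and fell by 2.67 ± 0.37 in MiaPaca2. PTGES, a prostaglandin E synthase, fell by 1.39 ± 0.14 in MiaPaca2. PTGDS, a prostaglandin D synthase, was at 3.86 ± 0.234 CPM in MiaPaca2 trametinib and 0.0825 ± 0.143 in MiaPaca2 DMSO. HPGD, which inactivates prostaglandins, was at 1.85 ± 0.360 and 0.0142 ± 0.0246 CPM there. HSD17B12 fell by 0.96 ± 0.08 in KP4 and fell by 1.13 ± 0.08 in MiaPaca2, and HSD17B14 rose by 0.45 ± 0.13 in KP4 and 1.64 ± 0.17 in MiaPaca2. In KP4 HSD3B7 rose by 0.96 ± 0.22 and PTGIS, the prostacyclin synthase, by 1.58 ± 0.30, while HSD17B11 fell by 0.33 ± 0.09.

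Of 14 retinoid genes tested, 7 were higher and 4 lower in each line, with median log2 fold changes of 0.06 in KP4 and 0.32 in MiaPaca2 (0.58 without MiaPaca2 DMSO replicate 2). CRABP2, a carrier of retinoic acid, fell by 0.60 ± 0.07 in KP4 and rose by 0.91 ± 0.07 in MiaPaca2, and these responses differed by −1.50 ± 0.10 (KP4 minus MiaPaca2; edgeR adjusted p = 7.70e-12). RDH10, which makes retinal, rose in KP4 by 0.97 ± 0.10. CYP26B1, which degrades retinoic acid, fell by 0.95 ± 0.13 in KP4, and the receptor gene RARA fell by 0.61 ± 0.07 there. In MiaPaca2 the receptor gene RARB rose by 0.59 ± 0.17, while RDH13 fell by 0.84 ± 0.11 and RDH11 fell by 0.23 ± 0.06.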

How the data were processed

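RNA of 12 libraries in 4 groups was analysed. The authors deposited raw counts of reads per gene, which carry no normalization. The submitters' processing notes name STAR, DESeq2 and GRCh38. Versions, the counting program, its annotation, strand use and its treatment of multiply mapped reads are unknown here. All 58735 identifiers matched GENCODE 29, which gave names and positions. Low genes were removed by filterByExpr (minimum count 10). TMM scaling and the quasi-likelihood test came from edgeR 4.0.16 under R 4.3.3, and every contrast from a single model of the 4 group means with robust shrinkage, which was tested on simulated data. The simulation gave all genes and libraries the same spread and planted changes only in well-counted genes. It does not cover changes in genes near 0 counts or an outlying library. The SE is the size of the log2 fold change over the root of F. Alternatives, among them DESeq2 1.42.0 and limma 3.58.1, changed the scaling, filter, tool, replicate block or libraries. Sequences were compared with Biopython 1.88, and intervals came from scipy 1.17.1. A group with 0 counts was set at 3 counts over the group. From each list, the 3 largest called rises and falls per line reaching 1 CPM are named, and all regulators, except genes that are not reported here. Genes most like a member reach 5 CPM and were ranked by r of log2 CPM (prior count 2). Members and lists were chosen with earlier results of these data known.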

Additional observations from a re-analysis of the deposited data

Results flagged for a closer look

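Responses to trametinib differed between the lines by edgeR's test of the difference itself for AKR1B1, at −1.09 (KP4 minus MiaPaca2). The same test passed for AKR1C3, at −4.96, and for the AKR1C sum, at −2.74. Both AKR1C results rest on few KP4 reads, 6 of AKR1C3 in KP4 trametinib and 7 in KP4 DMSO, all 7 of them in replicate 3. Without that library AKR1C3 had −0.74 (edgeR adjusted p = 0.812) and the sum −0.47 (edgeR adjusted p = 0.955), so neither call stands without it. AKR1C3 passed the filter on low counts only through MiaPaca2 trametinib, where it is high. No explanation was tested.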

How the results depend on the processing

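Every member call for trametinib against DMSO in KP4 and in MiaPaca2 kept its direction and its side of the threshold under every alternative. AKR1C2 and AKR1C3 entered the main fit only through MiaPaca2 trametinib, so their calls in MiaPaca2 are a description. The calls that changed rest on AKR1C reads in KP4 or on the small AKR7A2 difference. With limma-voom the KP4 response was 0.25 for the AKR1C sum and 0.83 for AKR1C3, neither of them called, and AKR1C3 between the lines in DMSO was −0.51. Leaving out 1 library gave −1.15 to 1.66, −0.81 to 3.95 and −3.92 to 1.00 for these results. In DMSO between the lines, AKR1C3 alone had 0.30 and the AKR1C sum −6.49. The difference of responses of the AKR1C sum missed the threshold with no filter (−2.74), with limma-voom (−1.88) and with the replicate block (−2.69, edgeR adjusted p = 0.0640), and ran from −3.28 to −0.47 when 1 library was left out. Limma-voom called 4 members and DESeq2 3 in that difference, where edgeR called 2, and 1 to 2 were called when 1 library was left out. Of all 16133 genes tested, limma-voom called 5913, DESeq2 5929 and edgeR 5764 there. With 1 library left out, 5128 to 6743 of all genes were called. In DMSO, 3 to 5 members differed between the lines when 1 library was left out. Of the 16525 to 16612 genes tested in those fits, 9569 to 10457 were called, so such calls are common among all genes. The difference of responses of AKR7A2, near 0, was 0.0467 with RLE scaling, 0.0069 with no filter and 0.0475 with DESeq2, and ran from −0.0722 to 0.0521 when 1 library was left out, as did that of AKR1A1 from −0.178 to 0.0225 and the MiaPaca2 response of AKR7A2 from −0.0862 to 0.038. The cause of these shifts was not tested. Replicate numbers did not pair libraries: same-numbered libraries correlated at −0.0239 to 0.0326, and the block changed no other call. List counts without MiaPaca2 DMSO replicate 2, a setting chosen after seeing the data, were 19 higher and 5 lower for NRF2 targets in MiaPaca2, and 8 higher and 3 lower of 15 for retinoid genes. The median log2 fold change of NRF2 targets in MiaPaca2 was then 0.29. Single genes of the lists also moved in size without that library, such as HMOX1 to 2.49, SQSTM1 to 1.65, HSD17B14 to 2.00 and PTGS2 to −2.19. Depth limits AKR1B10 in both lines and the AKR1C genes in KP4.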
